A study of Mus musculus with 128 samples.

Results

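Single mouse embryos of the C57BL/6 strain were collected at the 2-cell stage, 1.5 days post fertilisation, and compared between embryos with and without a maternal copy of Kdm4a. Both groups had a father that lacked Kdm4a: wildtype or Kdm4a-knockout MII oocytes (mature unfertilized eggs) were fertilized with knockout sperm. The 16 wildtype embryos, WT (m+/p-), therefore inherited Kdm4a through the egg only, while the 16 knockout embryos (m-/p-) inherited no functional copy. Members were taken by the group in the sample labels, which gave 32 of the 128 libraries of the series; the wildtype and knockout oocytes and 4-cell embryos (32 libraries each) are used only for context. Each embryo was freed of its zona pellucida (the glycoprotein coat), put in a tube of its own and amplified whole, so a loss in 1 blastomere and a smaller loss in both cannot be told apart. The labels name neither mothers nor litters, nor the hour of collection within the stage, so p-values measure the spread between embryos that may share mothers, and a difference in level cannot be told apart from one in developmental pace.

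KDM4A is a JmjC-domain demethylase that removes methyl groups from lysine 9 and lysine 36 of histone H3. Methylation of H3K9 marks silent chromatin, and in the oocyte KDM4A is known to keep this mark out of broad domains of H3K4me3. A mouse embryo begins with RNA stored in the egg, which is degraded while the embryo's own genome is switched on, with the major wave of transcription at the 2-cell stage. A 2-cell library therefore holds a mixture of leftover maternal RNA and newly made embryonic RNA.

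Kdm4a itself (ENSMUSG00000033326, chr4:118136957-118180043 of mm10, minus strand) ran from 5.09 to 22.6 CPM (the rounded count scaled to the library's total, as CPM) in wildtype embryos, with a median of 16.5. Knockout embryos ran from 0 to 6.02 CPM (median 2.26). All 16 knockout embryos lay below the wildtype median, and 14 of them below every wildtype embryo. The mean was 15.1 ± 4.81 CPM in wildtype and 2.65 ± 1.83 in knockout (SD, n = 16 each; two-sided permutation test with 100000 resamples, p = 2e-05, the smallest these can give; adjusted over 4 library measures, 8e-05). The log2 fold change, here and below knockout minus wildtype, was -2.42 (SE 0.30; edgeR quasi-likelihood adjusted p = 3.31e-07) and -2.40 without knockout replicate 13. The labels do not say which exons the knockout removes, so reads from an undeleted stretch cannot be told apart from intact transcript.

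Knockout replicate 13 held 528377 counts and the other 31 libraries between 1526660 and 3434766, so each result is also given without that library where it matters. At an equal depth of 100000 counts, 8733 ± 407 genes were detected in wildtype and 8390 ± 271 in knockout embryos (n = 16 each; p = 0.00846 by permutation, 0.0169 after adjustment). The means were 8751 against 8294 among replicates 1 to 8 (exact permutation p = 0.00249). Among replicates 9 to 16 they were 8715 against 8486 (exact permutation p = 0.292). Mitochondrially encoded transcripts took 3.43% ± 1.21 of counts of wildtype embryos and 2.64% ± 0.649 of knockout ones (p = 0.0238 by permutation, 0.0318 after adjustment). That difference was 4.18% against 2.31% among replicates 1 to 8 (exact permutation p = 0.00155) and 2.68% against 2.97% among replicates 9 to 16 (exact permutation p = 0.303). The labels do not say what separates these ranges of replicate numbers. The libraries held markers of both the 2-cell stage and the oocyte. The summed level of 9 markers of the 2-cell stage in the table had a median of 2761 CPM in wildtype and 1451 in knockout. That of 10 oocyte markers was 3806 and 4001, above the 2-cell median in both genotypes. Markers of cumulus cells, sperm and blood summed to medians of 38 against 43.6, 91.1 against 90.0 and 7.35 against 5.06 CPM. The most abundant of each were Cyp19a1, Odf2 and Hba-a1. Markers of later embryos summed to medians of 215 against 230 CPM, with Dab2 the most abundant.

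**Figure D1:**
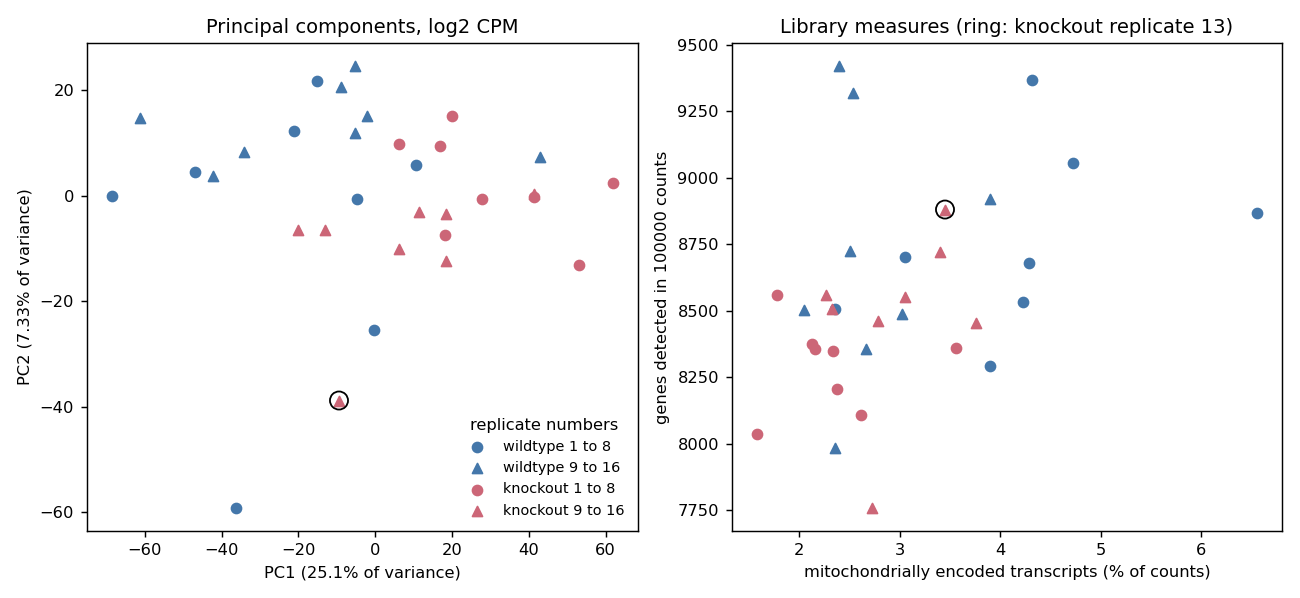
Left: the 32 libraries on the first 2 principal components of log2 CPM over the 8728 genes tested, with genotype by colour and range of replicate numbers by shape. Right: genes detected in 100000 counts against the percent of counts from mitochondrially encoded transcripts. Knockout embryos sit to the right on PC1 (medians 24.0 and 8.88 in the 2 ranges, against -18.1 and -7.15 in wildtype) with overlap, and knockout replicate 13 (ring) is low on PC2.

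Transcripts that were lost outnumbered those gained once the size of the change is considered. Of 8728 genes tested, 633 were higher in knockout embryos (7.25%) and 873 lower (10%) at an edgeR adjusted p under 0.05, which is what "called" means below. Among genes changed at least 2-fold the counts were 32 higher (0.367%) and 394 lower (4.51%). The median log2 fold change of called genes was 0.57 for the higher and -0.94 for the lower ones. Without knockout replicate 13, 714 of 8817 genes were higher (8.1%) and 939 lower (10.6%), with 43 and 428 past 2-fold (0.488% and 4.85%). Of the 873 lower genes 836 were also called lower without that library, and of the 633 higher genes 614 higher. Changes of 2-fold simulated on these libraries were recovered for 73.1% of 93 genes and 1.5-fold changes for 20% of 95, over 8728 genes, so many small changes would be missed.

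**Figure D2:**
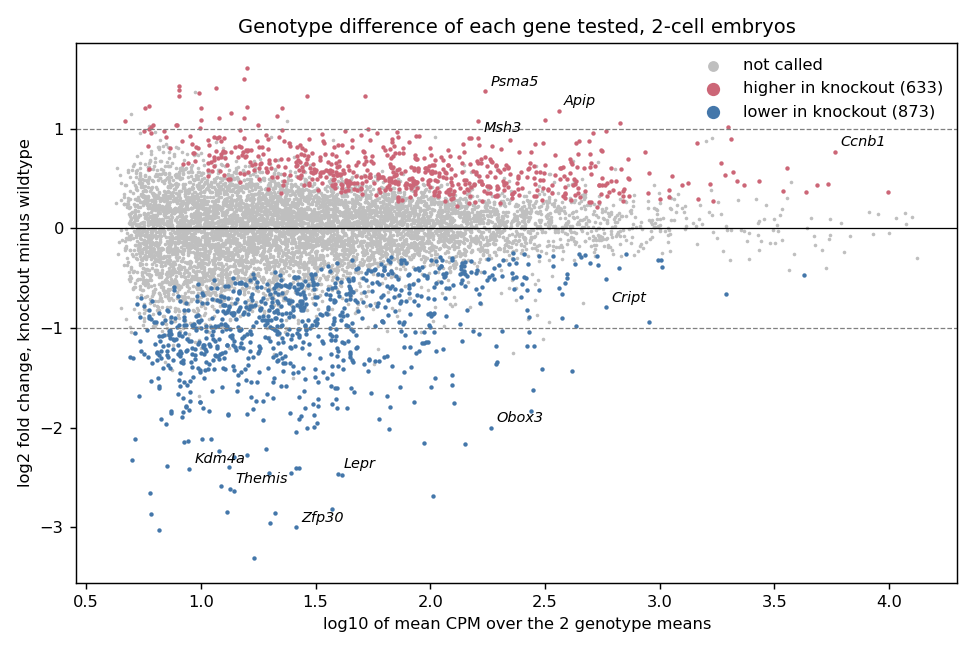
Log2 fold change (knockout minus wildtype, vertical axis) against the log10 of mean CPM (horizontal axis) for the 8728 genes tested; each point is a gene, coloured where called, and dashed lines mark 2-fold. The 394 genes below the lower line spread over low and middle levels, and few called genes lie above the upper line.

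The lower genes with the smallest p-values were a mixed group with no shared tissue. Several are best known from differentiated organs: Lepr (the leptin receptor), Themis (a T-cell development factor), Gria4 (an AMPA-type glutamate receptor subunit), Serpinb3a (a protease inhibitor) and Cyp2c29 (a cytochrome P450 of the liver). Lepr ran from 29.6 to 132 CPM in wildtype (median 68.4) and from 4.22 to 21.8 in knockout (median 11.2), with no overlap; its log2 fold change was -2.46 (SE 0.22, edgeR adjusted p = 3.56e-10). Themis ran from 9.74 to 35.0 CPM (median 24.1) against 0.469 to 7.86 (median 3.66), again with no overlap, at -2.61 (SE 0.29, edgeR adjusted p = 3.06e-08). Gria4 ranged over 23.7 to 71.3 CPM (median 44.2) in wildtype and 2.58 to 29.0 (median 8.66) in knockout, where 15 of 16 embryos lay below every wildtype embryo (log2 fold change -2.01, SE 0.24). Serpinb3a ranged over 24.7 to 87.0 CPM (median 44.7) and 3.71 to 35.2 (median 9.34), and Cyp2c29 over 39.7 to 131 (median 66.2) and 1.03 to 42.4 (median 9.20); in each, 1 knockout embryo reached into the wildtype range. Their log2 fold changes were -1.99 (SE 0.24) and -2.48 (SE 0.31). In Cyp2c29, which has close relatives in its family, 87.5% of non-zero values were not whole, so its reads cannot be told apart from theirs. These 5 genes were already low in knockout oocytes, at -2.21, -1.78, -1.59, -1.98 and -0.93 in the order Lepr, Themis, Gria4, Serpinb3a, Cyp2c29 (edgeR adjusted p at most 0.018). At the 4-cell stage Themis, Serpinb3a, Gria4 and Cyp2c29 had means under 1.5 CPM in both genotypes, and Lepr stood at 23.3 against 13.3 CPM.

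Other lower genes encode widely used proteins. Polr3k, a subunit of RNA polymerase III, ran from 51.1 to 211 CPM (median 97.9) in wildtype and from 19.5 to 60.04 (median 39.3) in knockout, at -1.45 (SE 0.16, edgeR adjusted p = 5.29e-08), with 13 of 16 knockout embryos below every wildtype embryo. Cript, a small protein that binds the postsynaptic scaffold, ran from 468 to 1181 CPM (median 725) against 294 to 518 (median 434), at -0.79 (SE 0.10). The ranges overlapped by 3 knockout embryos. Unlike the genes above, Cript was not called in oocytes, where its mean was 54.3 ± 12.8 CPM in wildtype and 89.2 ± 199 in knockout (n = 16 each; log2 fold change 0.93, SE 0.45, edgeR adjusted p = 0.185). It was lower at the 4-cell stage too (-0.58, edgeR adjusted p = 0.0014). Ttc6, a tetratricopeptide-repeat gene, was at -1.32 (SE 0.18) with wildtype embryos at 24.7 to 89.4 CPM and knockout embryos at 8.69 to 32.8, and stood at -1.66 in oocytes.

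A pair of genes had almost no RNA in the egg. Zfp30, a zinc-finger gene, was listed at 0 counts in all 32 oocytes. It reached a median of 33.2 CPM (0.484 to 107) in wildtype 2-cell embryos and of 4.61 CPM (0 to 17.03) in knockout embryos, all 16 of which lay below the wildtype median, although 1 wildtype embryo was as low as the knockouts. Its log2 fold change was -3.001 (SE 0.41, edgeR adjusted p = 4.56e-06). Sccpdh, a saccharopine dehydrogenase-like enzyme gene, had a mean of 0.0389 CPM in wildtype oocytes; at the 2-cell stage it ran from 5.33 to 91.5 CPM (median 24.2) against 4.65 to 14 (median 8.63), at -1.74 (SE 0.26). The last 2 of the 12 lower genes named by p-value, Cml2 (-1.15, SE 0.17) and the vomeronasal receptor gene Vmn2r51 (-1.06, SE 0.16), share reads with related genes: 81.3% and 100% of their non-zero values were not whole numbers, so the members of each family cannot be told apart.

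**Figure D3:**
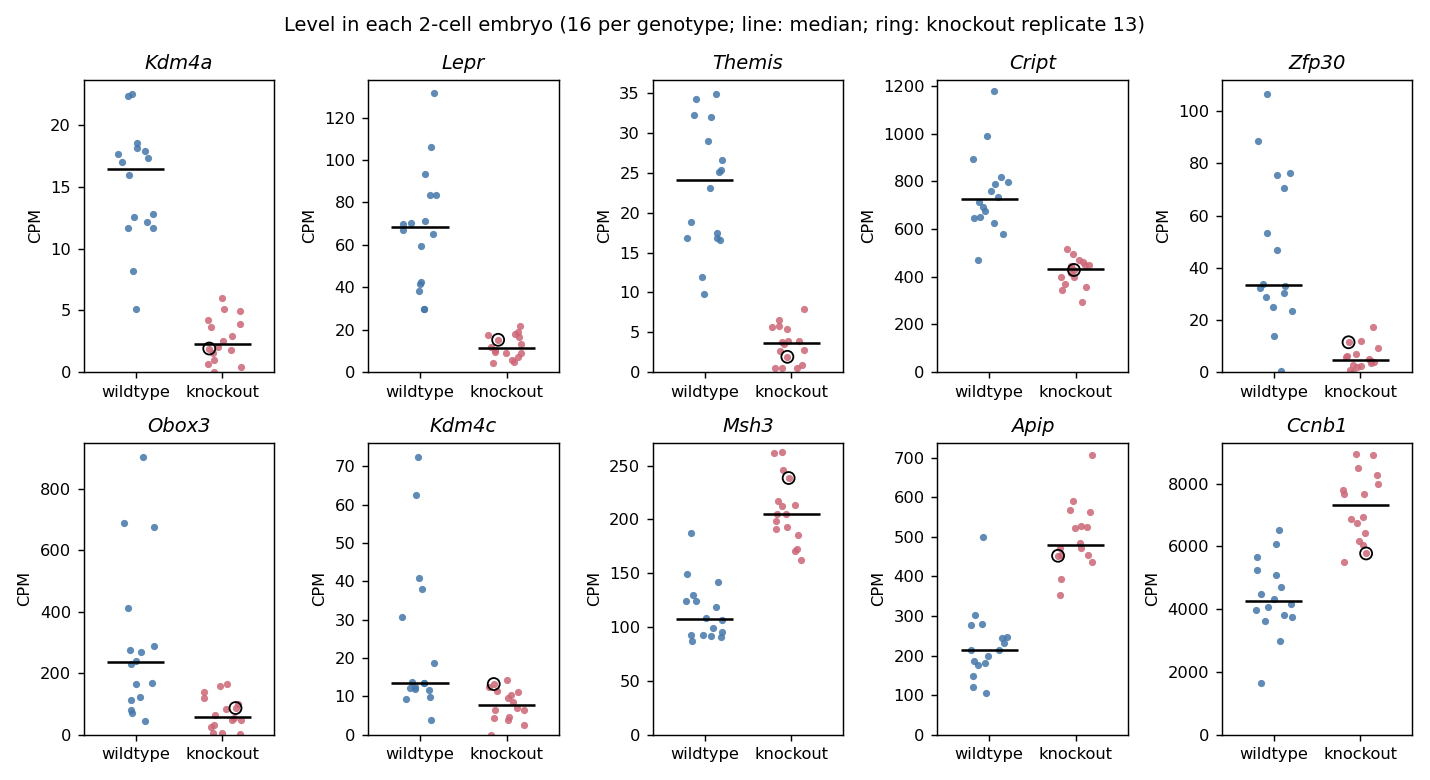
CPM in each of the 32 embryos of the 2-cell stage for 10 genes (vertical axes start at 0), with the median of each genotype as a line and knockout replicate 13 ringed. Lepr and Themis do not overlap between genotypes; Zfp30, Obox3 and Kdm4c spread widely in wildtype and are compressed near the bottom in knockout; Msh3, Apip and Ccnb1 are raised.

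The RefSeq promoter window (GRCm38.p6, the mm10 assembly), from 250 bases before to 50 after the start, is printed for the first 6 lower and the first 2 higher genes by p-value among those with a gene symbol that is not a clone name, to show how their start regions differ in composition. Capitals mark matches to the TATA box TATAAA, the CCAAT box CCAAT, the GC box GGGCGG, the homeobox core TAATCC and the nuclear-receptor site AAGGTCA, on either strand; matches may overlap.
Lepr, chr4:101717157-101717456, plus strand: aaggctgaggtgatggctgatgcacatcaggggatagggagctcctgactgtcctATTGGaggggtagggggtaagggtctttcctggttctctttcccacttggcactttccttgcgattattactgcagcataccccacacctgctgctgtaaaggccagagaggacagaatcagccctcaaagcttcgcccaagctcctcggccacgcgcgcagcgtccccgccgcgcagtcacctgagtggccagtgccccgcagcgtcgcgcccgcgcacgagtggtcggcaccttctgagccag
Themis, chr10:28668110-28668409, plus strand: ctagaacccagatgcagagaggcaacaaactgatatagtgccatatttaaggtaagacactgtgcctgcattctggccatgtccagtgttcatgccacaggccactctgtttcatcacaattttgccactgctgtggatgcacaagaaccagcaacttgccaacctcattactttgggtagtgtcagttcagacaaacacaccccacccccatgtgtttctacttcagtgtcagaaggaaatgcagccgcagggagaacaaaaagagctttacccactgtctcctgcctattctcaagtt
Polr3k, chr2:181864110-181864409, plus strand: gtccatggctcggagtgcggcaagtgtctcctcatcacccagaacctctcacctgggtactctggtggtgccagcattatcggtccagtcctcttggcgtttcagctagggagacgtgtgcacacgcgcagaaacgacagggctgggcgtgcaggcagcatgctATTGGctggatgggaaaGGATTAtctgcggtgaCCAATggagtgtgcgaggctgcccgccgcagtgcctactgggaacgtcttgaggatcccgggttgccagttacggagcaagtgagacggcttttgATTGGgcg
Gria4, chr9:4796185-4796484, minus strand: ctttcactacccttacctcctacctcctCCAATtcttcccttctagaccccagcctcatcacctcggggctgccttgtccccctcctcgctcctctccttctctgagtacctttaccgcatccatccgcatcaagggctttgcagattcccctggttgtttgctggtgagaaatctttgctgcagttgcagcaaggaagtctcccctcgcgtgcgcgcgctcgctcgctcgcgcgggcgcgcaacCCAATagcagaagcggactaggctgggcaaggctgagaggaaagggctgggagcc
Serpinb3a, chr1:107052254-107052553, minus strand: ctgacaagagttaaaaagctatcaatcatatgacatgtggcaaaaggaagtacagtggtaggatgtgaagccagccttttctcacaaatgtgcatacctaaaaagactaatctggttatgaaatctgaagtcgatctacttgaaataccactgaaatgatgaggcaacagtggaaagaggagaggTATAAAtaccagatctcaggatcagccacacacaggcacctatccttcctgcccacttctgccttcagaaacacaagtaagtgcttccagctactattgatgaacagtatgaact
Cyp2c29, chr19:39286835-39287134, plus strand: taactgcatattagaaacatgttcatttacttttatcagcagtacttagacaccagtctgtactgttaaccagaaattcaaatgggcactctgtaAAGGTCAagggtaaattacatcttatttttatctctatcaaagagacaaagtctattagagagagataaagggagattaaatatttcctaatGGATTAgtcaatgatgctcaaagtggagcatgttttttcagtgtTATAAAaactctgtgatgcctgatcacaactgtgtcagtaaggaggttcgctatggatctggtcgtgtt
Msh3, chr13:92354954-92355253, minus strand: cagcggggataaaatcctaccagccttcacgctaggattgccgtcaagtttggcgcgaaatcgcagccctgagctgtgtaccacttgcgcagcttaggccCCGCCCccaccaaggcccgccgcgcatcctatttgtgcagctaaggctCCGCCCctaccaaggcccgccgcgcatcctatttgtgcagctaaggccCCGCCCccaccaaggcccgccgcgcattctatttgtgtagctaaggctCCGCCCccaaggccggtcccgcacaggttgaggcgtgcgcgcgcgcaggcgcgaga
Apip, chr2:103073425-103073724, plus strand: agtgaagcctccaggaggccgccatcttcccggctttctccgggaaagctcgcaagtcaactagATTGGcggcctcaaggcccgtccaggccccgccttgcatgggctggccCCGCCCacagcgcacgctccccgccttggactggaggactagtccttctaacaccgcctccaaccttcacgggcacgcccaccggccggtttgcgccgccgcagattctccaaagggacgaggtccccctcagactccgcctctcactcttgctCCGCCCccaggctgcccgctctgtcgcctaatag
The windows differ in composition. Lepr, Polr3k and Gria4 hold 18, 18 and 17 CG pairs, while Themis, Serpinb3a and Cyp2c29 hold 1, 1 and 2, and the TATA box TATAAA occurs in the windows of Serpinb3a and Cyp2c29 alone among the 8. Msh3 and Apip hold 29 and 24 CG pairs and 4 and 2 GC boxes. The Cyp2c29 window lies 17680 bases inside the deposited gene model, which starts upstream of it.

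Over all called genes with a window, the shares holding each motif were as follows. TATAAA was found in 14.3% of the 168 windows of genes lower at least 2-fold, in 10.7% of 458 windows of all lower genes, in 6.47% of 464 windows of higher genes and in 7.25% of the 5817 windows of genes tested (13.6% of all 32851 windows of the table). The homeobox core TAATCC was found in 12.5%, 8.73%, 5.82% and 5.79% of the same sets (7.06% of all windows). Of the 394 genes lower at least 2-fold 193 were under 1 CPM in wildtype oocytes, and over the 377 windows of all tested genes of that class TATAAA was found in 11.1%, TAATCC in 9.81% and the GC box in 49.3%. A window was in the table for 168 of the 394 genes lower at least 2-fold. Median CG pairs were 19.5 in genes lower at least 2-fold and 22 in genes tested. The GC box was found in 54.8% of windows of genes lower at least 2-fold and 63.6% of genes tested, CCAAT in 36.3% and 40.5%, and AAGGTCA in 1.79% and 2.96%.

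Long noncoding transcripts of the X chromosome were the largest group among genes whose genotype ranges did not overlap. Of all genes tested, 15 had every knockout embryo below every wildtype embryo (0.172% of 8728), with or without knockout replicate 13, and none had the reverse. Besides Lepr and Themis these were 13 genes that the annotation knows by clone names, and all 15 were also called lower in MII oocytes. They are named here although they fall outside the rule by p-value, and were chosen after their values were seen. Among the 13, 9 are long noncoding genes on the X chromosome, for example RP23-318K2.2 (chrX:35129015-35179028, plus strand), with 14.5 to 52.6 CPM in wildtype (median 36.03) and 1.85 to 8.98 in knockout (median 4.26). Its log2 fold change was -2.86 (SE 0.21, edgeR adjusted p = 2.78e-12), against -2.51 in oocytes. RP23-285I7.1 (chrX:30373539-30422500, plus strand) ran from 16.6 to 49.1 CPM against 0 to 13.4, at -2.96 (SE 0.29) and -3.47 in oocytes. Between 25 and 36 Mb of the X chromosome 12 genes were tested and 11 were called lower, all of them long noncoding by position, at log2 fold changes of -3.03 to -1.24; Dock11 was the exception (-0.55, edgeR adjusted p = 0.216). The bounds of this stretch enclose genes picked after their values were seen. A gene low in knockout embryos can pass the filter through the wildtype embryos alone, which favours lower calls. RP24-89M24.3, for example, had medians of 11.6 CPM in wildtype and 0.87 in knockout. The 11 of 12 therefore cannot be read as the share of losses in this region. All 11 were also called lower in oocytes, at -3.47 to -1.69. In these genes 96.8% to 100% of non-zero values were not whole, as arises when a read fits several places and is divided, so the 11 share reads and cannot be told apart. Their median was -2.48 among replicates 1 to 8 and -2.52 among replicates 9 to 16. None of them passed the filter at the 4-cell stage.

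Genes next to Lepr and on chromosome 14 added to this set. RP23-149D11.2, annotated as protein coding at chr4:101890020-101893789, downstream of Lepr, had a wildtype range of 79.8 to 316 CPM and a knockout range of 10.52 to 58.4, at -2.69 (SE 0.21). RP24-230H12.2 and RP23-473B17.1 lie between 41 and 43 Mb of chromosome 14 and were at -2.40 (SE 0.23) and -2.12 (SE 0.21), with 93.5% and 93.8% of non-zero values not whole. In windows of 5 Mb, of which 383 held at least 10 genes tested, the 2 with the greatest share of lower calls were on chromosome 4 from 70 to 75 Mb (10 of 16 genes lower) and on chromosome 14 from 40 to 45 Mb (11 of 18). The chromosome 4 window holds Kdm4c and clone-named genes, and 0 of its 3 genes tested in oocytes were lower there. The chromosome 14 window had 8 of its 11 lower genes called lower in oocytes as well. Over all genes tested 10% were lower. In each of the 2 windows the median share of non-zero values not whole was 93.8%, so their genes may share reads and cannot be counted as separate losses. Near Kdm4a itself, within 10 Mb on chromosome 4, 12 of 105 genes tested were higher and 9 lower (11.4% and 8.57%), against 7.30% and 9.67% on all other chromosomes. Within 20 Mb, a stretch that holds Lepr and RP23-149D11.2, 18 of 221 were higher and 27 lower (8.14% and 12.2%). On the rest of chromosome 4, 18 of 326 were higher and 54 lower (5.52% and 16.6%). Whether position relative to Kdm4a plays a part was not tested.

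Genes known by clone or provisional names made up 1406 of the genes tested, with 61 higher and 279 lower (4.34% and 19.8%), against 572 and 594 of 7322 other genes (7.81% and 8.11%). Without knockout replicate 13 the lower share was 19.9% of 1437, in replicates 1 to 8 it was 11.1% against 8.46% of other genes, and in replicates 9 to 16 4.79% against 0.514%. By annotated type, 128 of 770 long noncoding genes in this class were lower (16.6%) and 121 of 523 protein-coding ones (23.1%). Zinc-finger symbols, a large class in which many members are encoded in clusters, gave 7 higher and 17 lower of 209 tested. These shares of 3.35% and 8.13% were both under the 7.25% and 10% of all genes tested.

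The level that a gene had in the egg was related to the direction of its difference 1 cleavage later. The 8728 genes were divided by mean CPM in the 16 wildtype MII oocytes, which are other libraries. Of 780 genes under 1 CPM in oocytes, 240 were lower in knockout embryos and 10 higher (30.8% and 1.28%, median log2 fold change -0.64). From 1 to 10 CPM the counts were 265 lower and 85 higher of 2625, from 10 to 100 CPM 272 and 272 of 3674, and at 100 CPM or more 96 lower and 266 higher of 1649 (5.82% and 16.1%, median 0.08). The order was the same without knockout replicate 13 (32.4% lower under 1 CPM, 17.8% higher at 100 or more). Per kilobase of transcript, the lower share fell from 19.99% of 1696 genes under 1 to 6.19% of 662 genes at 100 or more. A gene low in the egg can pass the filter through the wildtype embryos alone, which favours lower calls. Over genes with at least 1 CPM in every knockout embryo, 129 of 421 genes under 1 CPM in oocytes were lower (30.6%) and 10 higher. That bound lies below the level the filter asks for, so this count cannot remove genes that passed through the wildtype embryos alone. The division by oocyte level and the next one were chosen after the data had been seen.

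A second division used the change from wildtype oocytes to wildtype 4-cell embryos, so that no 2-cell library defined it. Of 2033 genes that rose by at least 2 on the scale of log2(CPM + 1), 439 were lower in knockout 2-cell embryos and 47 higher (21.6% and 2.31%, median -0.32). Of 2552 genes that fell by at least 2, 123 were lower and 306 higher (4.82% and 11.99%, median 0.09). Genes within 1 were called equally often in each direction, 154 and 154 of 2118. In replicates 9 to 16 alone the medians kept this order (-0.19 for the genes that rose, 0.04 for those that fell), but only 19 lower and 4 higher genes were called among 1999 that rose and 37 lower and 18 higher among 2530 that fell, so the shares of calls did not. In the sets that fell, the direction of the calls therefore differed between ranges of replicate numbers.

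**Figure D4:**
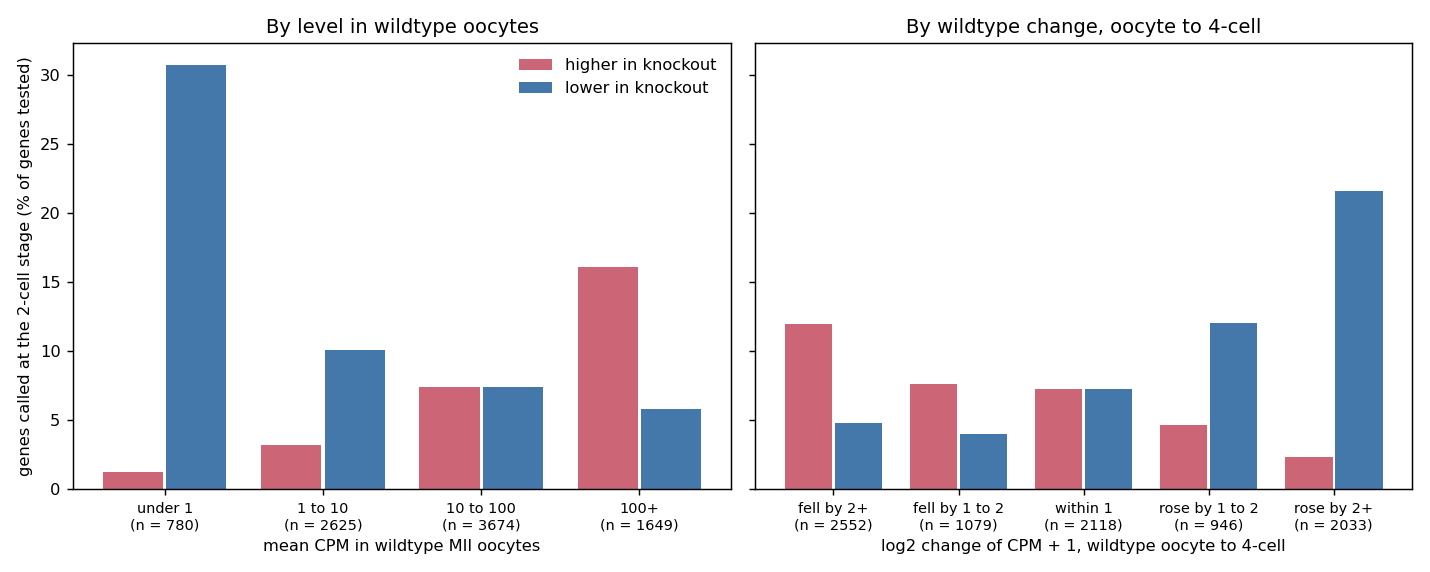
Percent of genes tested that were called higher or lower in knockout 2-cell embryos, by mean CPM in wildtype MII oocytes (left) and by the wildtype log2 change from oocyte to 4-cell embryo (right); n is the number of genes tested. The lower share is 30.8% for genes under 1 CPM in oocytes and 21.6% for genes that rose by 2 or more, and the higher share is greatest, at 16.1% and 11.99%, for genes abundant in the oocyte and genes that fell.

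Among the enzymes and readers of H3K9 methylation, the closest relatives of Kdm4a were low or lower. Kdm4c, a paralogue with the same substrates, ran from 3.88 to 72.5 CPM in wildtype (median 13.4) and from 0 to 14.4 in knockout (median 7.84), at -1.52 (SE 0.35, edgeR adjusted p = 0.0031), and was not called among replicates 9 to 16 alone (-1.30). It had a mean of 0.352 CPM in wildtype oocytes. Kdm4b and Kdm4d did not pass the filter. Of 20 genes for H3K9 methylation, 17 were tested, 4 were higher and 2 lower (median 0.13, against -0.006 for all genes tested). These are 23.5% and 11.8%, against 7.25% and 10% of all genes tested. The lower ones are demethylase genes of the KDM3 family: Kdm3a at -1.13 (SE 0.28), with 9.04 to 130 CPM in wildtype and 4.63 to 38.1 in knockout, and Jmjd1c at -0.64 (SE 0.19). Phf8, another demethylase gene, was higher by 0.57 (SE 0.13), as were the methyltransferase gene Suv39h2 and the HP1 genes Cbx1 and Cbx5 (0.22 to 0.32). In replicates 1 to 8 alone, 1 of the 17 H3K9 genes was called higher and 1 lower (median 0.19). In replicates 9 to 16 alone 0 of the 17 were called (median 0.12).

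Other chromatin lists were called about as often as all genes tested (7.25% higher and 10% lower). Of 28 genes tested for histone variants and their chaperones 3 were lower and 3 higher (10.7% each). The lower ones were H2afz and H2afv, which encode the H2A.Z proteins, at -1.06 (SE 0.24) and -1.47 (SE 0.28), and Cenpa, the centromeric H3 gene, at -0.65 (SE 0.15). H2afz ran from 61.0 to 472 CPM in wildtype (median 192) and from 44.4 to 171 in knockout (median 111). H3f3a, 1 of the genes for H3.3, was higher by 0.43 (SE 0.10), with 96.9% of non-zero values not whole. Polycomb, H3K4 and H3K36 genes gave 3 higher and 3 lower of 34 (8.82% each): Kdm5b, an H3K4 demethylase gene, was at -0.94 (SE 0.25), Setd2, the H3K36 trimethylase gene, at -0.55 (SE 0.15), Suz12 at -0.37 (SE 0.11), and Rbbp5 of the H3K4 methylase complexes at 0.89 (SE 0.25). Suz12 was at -0.80 in replicates 1 to 8 and 0.08 in replicates 9 to 16, where 0 genes of these lists were called.

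Of 28 listed transcription factors linked to genome activation 21 were tested, 5 were lower and 1, Klf17, higher (23.8% and 4.76%, against 10% and 7.25% of all genes tested; median -0.20). Replicates 1 to 8 alone gave 6 lower, and replicates 9 to 16 gave 0 called of 22. Obox3, an embryonic member of the Obox homeobox family, ran from 43.6 to 905 CPM in wildtype (median 235) and from 3.67 to 164 in knockout (median 59.1), at -2.003 (SE 0.45, edgeR adjusted p = 0.0029). Obox6 was at -1.23 (SE 0.31), Dppa4, which helps activate 2-cell genes, at -1.13 (SE 0.28), the nuclear receptor gene Nr5a2 at -0.70 (SE 0.18) and Gabpa, an ETS factor, at -1.50 (SE 0.39). Genotype ranges overlapped in all of these. The maternal members Obox1 (0.05), Obox2 (-0.23) and Obox5 (-0.06) were not called. In Obox3 all non-zero values were not whole, so reads are shared within the family.

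Genes that are on for a short time at the 2-cell stage had the lowest median of the lists with more than 2 genes tested. Of 36 listed, 25 were in the table and 22 tested. Among those tested 8 were lower and 0 higher (36.4% and 0%, against 10% and 7.25% of all genes tested), and the median was -0.96. Tmem92 ran from 35.7 to 259 CPM in wildtype (median 69.6) and 11.8 to 60.4 in knockout (median 25.4), at -1.68 (SE 0.26, edgeR adjusted p = 4.3e-05). Ubtfl1, an HMG-box gene of the preimplantation embryo, ran from 63.6 to 247 (median 113) and 11.8 to 98.3 (median 36.2), at -1.39 (SE 0.22). Tdpoz1, Tdpoz5, Usp17lc, Pramef25, Tcstv3 and Arg2 were the other lower members, at -1.96 to -0.48. The 5 Zscan4 genes tested, which mark this stage, were at -1.21 to -0.75 and none was called by edgeR, with wildtype means from 76.5 CPM for Zscan4e to 587 CPM for Zscan4d. The number of calls in this list depended on the tool: limma voom called 14 of the 22 lower. Replicates 1 to 8 gave a median of -0.52 and replicates 9 to 16 one of -1.25. Most members belong to multi-copy families whose reads can be shared.

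For the general RNA polymerase II machinery 3 genes were higher and 5 lower of 48 tested (6.25% and 10.4%, close to the 7.25% and 10% of all genes tested; median -0.10). Gtf2b, which recruits the polymerase to the promoter, was higher by 0.97 (SE 0.21; 146 to 653 CPM in wildtype, 335 to 1487 in knockout) and Tbp, the TATA-binding protein gene, by 0.44 (SE 0.12). Supt4a, a subunit of an elongation factor, was at -0.85 (SE 0.19), and Taf13 at -0.49 (SE 0.13). Ribosome biogenesis genes gave 1 higher and 5 lower of 43, with Taf1d (RNA polymerase I factor) at -0.95 (SE 0.23), Tsr1 at -0.85 (SE 0.23), Polr1d at -0.48 (SE 0.14) and Ddx21 at -0.75 (SE 0.22).

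Cytosolic ribosomal protein genes had the greatest number of lower calls of the 25 lists: 27 of 63 tested, with 2 higher, and a median of -0.56. These are 42.9% and 3.17%, against 10% and 7.25% of all genes tested. With limma voom 16 of the 63 were lower. Rpl39 ran from 21.99 to 140 CPM in wildtype (median 53.4) and from 14.5 to 51.1 in knockout (median 23.4), at -1.34 (SE 0.23, edgeR adjusted p = 1e-04). Rps13 was at -0.88 (SE 0.19) and Rpl41 at -1.63 (SE 0.36). The 2 exceptions were Rpl17 (72.7 to 151 CPM against 132 to 290, log2 fold change 0.91, SE 0.11) and Rps15a (0.60, SE 0.12). Ribosomal protein genes have many processed copies in the genome, and 90.6% of the non-zero values of Rpl17 were not whole. Replicates 1 to 8 gave a median of -0.68; replicates 9 to 16 gave -0.41, with 0 called lower. Translation factors showed no such tilt: 6 were higher and 3 lower of 42, with Eif2b1 at 0.48 (SE 0.09) and Eif3j1 and Eif3c at -0.62 (SE 0.13) and -0.85 (SE 0.22).

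Of 27 chaperone genes 6 were higher and 1, Hspa2, lower (22.2% and 3.70%, against 7.25% and 10% of all genes tested; median 0.16). Members of the TRiC chaperonin, which folds actin and tubulin, were among the higher ones: Cct8 (0.69, SE 0.15), Tcp1 (0.59, SE 0.15), Cct7 (0.56, SE 0.16) and Cct2 (0.47, SE 0.14). Proteasome genes gave 5 higher and 1 lower of 33, led by Psma5 (33.9 to 239 CPM against 102 to 527; log2 fold change 1.37, SE 0.27) and Psma2 (174 to 698 against 437 to 1877; 1.05, SE 0.23). Psmb2 was higher by 0.74 (SE 0.19) and Psmc3 was at -0.90 (SE 0.26). In replicates 9 to 16 alone the chaperone and proteasome medians were -0.07 and -0.04, and 0 genes of either list were called. Among 35 ubiquitin-conjugating and cullin genes only Ube2t, which acts in DNA repair, was higher (1.07, SE 0.14; 60.1 to 204 CPM against 135 to 337), while Ube2b, Skp2 and Cul3 were lower (-0.40, -0.66 and -1.59). Cul3 ran from 19.4 to 410 CPM in wildtype and 8.26 to 186 in knockout.

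In the spliceosome list 6 of 41 genes were higher and 8 lower (14.6% and 19.5%, against 7.25% and 10% of all genes tested): the SF3 genes Sf3b1 (0.64, SE 0.13), Sf3a3 (0.51, SE 0.13), Sf3b2, Sf3b3 and Sf3b4 were among the higher ones, together with Snrnp40 (0.94, SE 0.19), and the SR protein genes Srsf2, Srsf9 and Srsf11 among the lower ones (-0.85 to -0.63). Nuclear pore and transport genes gave 9 higher and 2 lower of 44 with a median of -0.002. Higher were the import receptor gene Kpna2 (551 to 1410 CPM against 946 to 2867; 0.86, SE 0.13) and the pore genes Nup35 (0.61, SE 0.10), Nup54 (0.59, SE 0.13) and Nup93 (1.33, SE 0.31). Lower were Nup205 and Ranbp2 (-0.70 and -0.86). In replicates 9 to 16 alone 0 genes of either list were called. With DESeq2, 5 nuclear pore and transport genes were lower, and with limma voom 5 spliceosome genes.

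Cell division genes held the most higher calls of the 25 lists: 14 of 48 were higher and 2 lower (median 0.24). These are 29.2% and 4.17%, against 7.25% and 10% of all genes tested. DESeq2 called 6 lower, and replicates 9 to 16 alone gave 1 higher and 0 lower. Ccnb1, the cyclin B1 gene, ran from 1663 to 6531 CPM in wildtype (median 4254) and from 5508 to 8937 in knockout (median 7310), at 0.77 (SE 0.13, edgeR adjusted p = 0.00013). All of its non-zero values were not whole. Ccnb2 was higher by 0.68 (SE 0.14), and the spindle checkpoint gene Bub3 by 0.79 (SE 0.13; 57.9 to 127 CPM against 89.9 to 226). Pttg1 (securin), Birc5, Aurka, Aurkc and 3 genes of the anaphase-promoting complex, Anapc4, Anapc5 and Anapc10, were higher by 0.31 to 0.77. Wee1, the kinase that restrains entry to mitosis, was lower, at -1.33 (SE 0.30; 1.45 to 80.3 CPM against 3.62 to 26.5), as was Cenpa. DNA replication genes were called about as often as all genes tested (7.32% each way, against 7.25% and 10%), with 3 higher (Cdc45 by 0.65, SE 0.17) and 3 lower (Prim2 at -1.13, SE 0.29, and Rpa2 at -1.30, SE 0.38) of 41. In the list of p53 targets and damage genes 1 of 17 was called, Brca2 at -0.26 (SE 0.09), and that call was lost in 18 of the 32 fits that left out 1 library.

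Some RNAs stored in the egg were higher in knockout embryos. Of 40 maternal-effect and oocyte genes tested 8 were higher and 0 lower (20% and 0%, against 7.25% and 10% of all genes tested, median 0.18). Oas1d ran from 157 to 623 CPM in wildtype (median 336) and from 352 to 1023 in knockout (median 638), at 0.96 (SE 0.19). Nlrp14 ran from 538 to 2200 (median 1294) and 1353 to 7361 (median 1988), at 1.01 (SE 0.25), Nlrp2 from 28.1 to 70.7 and 37.9 to 254, at 0.97 (SE 0.20), and Zfp57, an imprint-protecting zinc-finger gene, from 103 to 333 and 170 to 897, at 1.09 (SE 0.24). Tle6 and Padi6 of the subcortical maternal complex were higher by 0.92 and 0.71. Replicates 1 to 8 alone gave a list median of 0.38 and 12 higher genes, and replicates 9 to 16 gave -0.06 and 0 higher. Oas1d, Nlrp14, Nlrp2 and Zfp57 were at 0.37 to 0.51 in the second range, none of them called. Of 41 genes for mRNA decay and storage 7 were lower and 3 higher (17.1% and 7.32%, against 10% and 7.25% of all genes tested). The lower ones include the deadenylase complex genes Cnot2 (-0.69, SE 0.13, 195 to 563 CPM against 124 to 251) and Cnot10 (-1.22, SE 0.30). The poly(A)-binding protein gene Pabpc1 was lower too (-1.03, SE 0.28), and the decapping gene Dcp1a was higher by 0.61 (SE 0.17).

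Of the energy metabolism genes, those for nuclear-encoded oxidative phosphorylation gave 4 higher and 5 lower of 51 (7.84% and 9.80%, close to the 7.25% and 10% of all genes tested), with the ATP synthase genes Atp5b and Atp5c1 higher by 0.60 (SE 0.13) and 0.42 (SE 0.10) and Ndufa2 at -0.94 (SE 0.25). Glycolysis and pyruvate genes gave 2 and 2 of 19: Pfkp (1.39, SE 0.25) and Pgk1 (0.79, SE 0.19) were higher, and both genes of the mitochondrial pyruvate carrier, Mpc1 (-0.48, SE 0.10) and Mpc2 (-0.90, SE 0.26), lower. Of the 13 mitochondrially encoded genes 2 were lower, mt-Nd2 (1266 to 4639 CPM against 560 to 2773; -0.66, SE 0.20) and mt-Nd4l (-0.49, SE 0.16). Without knockout replicate 13, 8 of the 13 were called lower (median -0.54); DESeq2 called 6 lower and limma voom 4. The list median of -0.42 in all embryos compares with -1.08 among replicates 1 to 8, where 11 of 13 were lower, and 0.16 among replicates 9 to 16, where 0 were called. Among 19 imprinted genes 3 were lower, Sfmbt2 (-1.85, SE 0.43), Ube3a (-0.56, SE 0.17) and Jade1 (-1.25, SE 0.44), and 0 higher. Jade1 lost its call in 18 fits that left out 1 library, among them the fit without knockout replicate 13 (edgeR adjusted p = 0.0514), in which 2 genes of the list were lower and 1 higher. Of 36 early lineage genes 15 were tested and 1 was called: the homeobox gene Hesx1 ran from 6.78 to 119 CPM in wildtype (median 23.9) and from 0.504 to 24.9 in knockout (median 4.36), at -2.41 (SE 0.43, edgeR adjusted p = 0.000243).

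**Figure D5:**
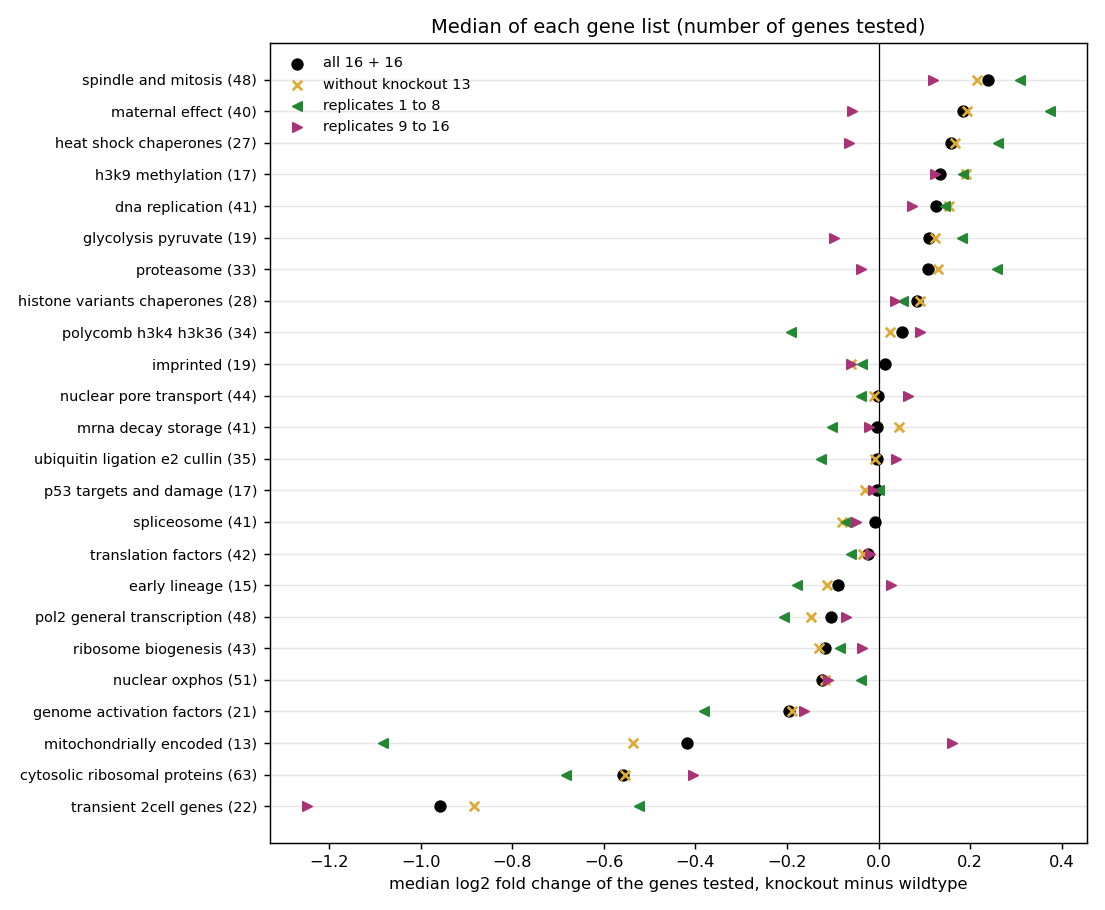
Median log2 fold change (knockout minus wildtype, horizontal axis) of the genes tested in 24 lists, for all embryos, without knockout replicate 13, and for replicates 1 to 8 and 9 to 16 alone. Transient 2-cell genes and ribosomal protein genes lie left of 0 in all 4 fits, whereas several lists, among them mitochondrially encoded, maternal-effect, chaperone and proteasome genes change side between the ranges.

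The higher genes with the smallest p-values changed less than the lower ones. Msh3, a mismatch repair gene, ran from 87.1 to 188 CPM in wildtype (median 107) and from 162 to 262 in knockout (median 205), at 0.91 (SE 0.11, edgeR adjusted p = 1.07e-07). Apip, an enzyme gene of methionine salvage, ran from 105 to 499 (median 215) and 352 to 707 (median 479), at 1.18 (SE 0.15). Atp6v1g1, a subunit of the vacuolar proton pump, ran from 96.5 to 202 (median 154) and 181 to 319 (median 252), at 0.80 (SE 0.11), with 15 of 16 knockout embryos above every wildtype embryo. In the 12 higher genes named by p-value, 15 or 16 of 16 knockout embryos lay above the wildtype median. A choice by p-value in this same comparison favours such a shift. The others were Stx17, a SNARE gene of autophagosomes (0.9991, SE 0.14), the 14-3-3 gene Ywhab (0.93, SE 0.13), Dph6 of diphthamide synthesis (0.86, SE 0.13), Ccdc69 (0.66, SE 0.10), the clock gene Arntl (0.63, SE 0.10), Depdc7 (0.86, SE 0.14), Arl6ip1 (0.85, SE 0.14), Ndufab1 (0.62, SE 0.10) and the mitochondrial fission gene Mff (0.53, SE 0.09). Msh3 and Apip were higher in knockout oocytes as well, by 0.43 (SE 0.08) and 0.74 (SE 0.11).

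The difference between genotypes was much larger among replicates 1 to 8 than among replicates 9 to 16. Among the first 8 against 8, 587 genes were higher and 770 lower (6.76% and 8.87% of 8682); among the second, 37 and 103 (0.431% and 1.2% of 8584), and 25 and 77 without knockout replicate 13 (0.283% and 0.871%). In both ranges 52 genes were called lower and 18 higher, and 0 were called in opposite directions. Among genes tested in both, these are 53.1% of 98 lower and 48.6% of 37 higher calls of replicates 9 to 16. They are 6.93% of 750 lower and 3.09% of 583 higher calls of replicates 1 to 8. Of the lower genes of the first range that were tested in the second, the median there was -0.41 and 78.1% had the same sign; of the higher genes it was 0.21 and 82.5%. Tested directly, the effect of genotype differed between the ranges for 37 of 10015 genes (0.369%), 34 of them (0.339%) with a more positive effect in replicates 9 to 16 and 3 (0.03%) with a more negative one. Of these 37, 7 were mitochondrially encoded, for example mt-Nd3 (difference 2.04) and mt-Nd6 (1.88). Among the others were Suz12 (0.86), Bmi1 (0.71), Arid1a (1.25) and Rad21 (1.01). Without knockout replicate 13 the count was 16 of 10215 (0.157%), with 6 mitochondrially encoded; Suz12 and Bmi1 were still called, and Arid1a and Rad21 were not (edgeR adjusted p = 0.0536 and 0.0883). The lower level of Lepr (-2.63 and -2.32), Themis (-3.04 and -2.23), Polr3k (-1.61 and -1.31), Gria4 (-1.85 and -2.23) and Serpinb3a (-1.56 and -2.44) was present in each range, and none of these is among the 37 genes. They were picked by p-value over both ranges together, which favours a lower level in each.

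The 2-cell difference was in part already present in the egg. Wildtype and knockout MII oocytes, which are separate libraries, differed in 405 genes higher (5.27% of 7680) and 514 lower (6.69%). Of the 2-cell genes called lower, 491 were tested in oocytes and 131 were lower there (26.7%), which is 27.0% of the 486 oocyte genes tested at both stages, and 11 were called in the opposite direction. Of the higher genes 86 of 604 were higher in oocytes (14.2%; 22.8% of 378) and 17 opposite. The difference between the effects at these stages was itself called for 198 genes in the positive and 211 in the negative direction (1.93% and 2.06% of 10240), and for 249 and 246 without knockout replicate 13 (2.41% and 2.39%). Of the 394 genes lower at least 2-fold, 193 were under 1 CPM in wildtype oocytes, 123 were tested there and 50 of those were lower. Toward the 4-cell stage the overlap was smaller: 64 of 606 lower genes (10.6%) and 48 of 426 higher genes (11.3%) were called in the same direction, and 41 and 28 in the opposite one. At that stage 671 genes were higher and 558 lower (8.97% and 7.46% of 7478). Of the 5779 genes tested at both stages, 625 were higher and 390 lower in 4-cell embryos. The 11.3% among the higher genes was therefore close to the share over all genes tested at both stages.

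Knockout embryos were more alike than wildtype embryos. The median SD of log2 CPM over 8728 genes was 0.542 among wildtype and 0.499 among knockout embryos, and 58.1% of genes had the smaller SD in knockout. The median correlation across genes between embryos of one genotype was 0.895 and 0.913, where genes are not independent replicates. Among replicates 1 to 8 the median SD was 0.551 against 0.447, and among replicates 9 to 16 0.484 against 0.478. The difference in spread was not tested, and the depth of the libraries and 2 wildtype embryos that stood apart (replicates 3 and 4, with median correlations to their group of 0.845 and 0.861) enter into it.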

How the data were processed

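Single embryos and oocytes were sequenced with a stranded SMART-Seq kit, per the labels' protocols. The authors trimmed reads with Trimmomatic 0.32, aligned them with STAR 2.5.1a and counted them with featureCounts 1.5.1 on mm10, per the submitters' processing notes. Whether counting used strand is not stated. Each deposited value is an estimated count of 1 gene, 29.3% of the non-zero ones not whole in 2-cell libraries, as when a read is divided among places; values were rounded here. Totals ran from 528377 to 3434766 counts.

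Genotypes were compared with edgeR 4.0.16 (R 4.3.3; TMM factors, filterByExpr, robust quasi-likelihood test) and Benjamini-Hochberg adjustment over all genes tested. SEs were derived from the F statistic. Library measures were compared by permutation (scipy 1.17.1). DESeq2 1.42.0, limma 3.58.1 voom, other factors, filters, covariates and left-out libraries were alternatives. On simulated data 73.1% of 93 genes changed 2-fold and 20% of 95 changed 1.5-fold were recovered over 8728 genes.

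The members and gene lists were chosen with earlier results of these data known. The text names Kdm4a, the 12 higher and 12 lower called genes of smallest p with a mean of at least 20 CPM and no clone or provisional name, up to 4 called members of each list, and 4 genes each way for the difference between stages. Further list members, clone-named genes and genes differing between replicate ranges were added after their values were seen. Gene types and positions are from the deposited table and GENCODE M21, promoters from RefSeq. The labels name no mothers or litters, so p-values measure the spread between these embryos. Same-numbered embryos of the 2 genotypes did not deviate together (16 pairs, correlations of -0.287 to 0.183), and every pair of embryos of one genotype differed beyond sampling noise (chi-square per gene at least 5.04 over 240 pairs).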

Additional observations from a re-analysis of the deposited data

Results flagged for a closer look

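A direct test of whether the genotype effect in 2-cell embryos differed from that in MII oocytes (an interaction term in edgeR, over 10240 genes) called 198 genes with a more positive effect at the 2-cell stage and 211 with a more negative one, 1.93% and 2.06%. Among genes also called at the 2-cell stage, the 4 with the smallest p in each direction are given with both effects. That choice favours genes whose fitted effects differ most between the stages.

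Tpm4, a tropomyosin gene, stood at 1.58 in oocytes and -1.06 in 2-cell embryos, and the fitted difference was -2.65 (SE 0.44). Rcbtb2 went from 0.67 to -1.41, a difference of -2.10 (SE 0.36). Calm2, a calmodulin gene, went from 1.30 to -0.51, with a difference of -1.82 (SE 0.33), and Tmem183a from 1.14 to -0.42, with a difference of -1.59 (SE 0.28). In these 4 genes the fitted knockout level was above wildtype in the egg and below it after cleavage.

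The other 4 moved the opposite way. Rpl17 stood at -0.56 in oocytes and 0.91 in 2-cell embryos, a difference of 1.45 (SE 0.18). Stx17 went from -0.19 to 0.9991, a difference of 1.17 (SE 0.18), Nr2e1, an orphan nuclear receptor gene, from -0.41 to 0.60, a difference of 0.99 (SE 0.18), and Ccdc69 from -0.20 to 0.66, a difference of 0.84 (SE 0.12). Without 2-cell knockout replicate 13 the counts were 249 and 246.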

How the results depend on the processing

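Among replicates 9 to 16 the counts were 37 higher and 103 lower (9 and 84 past 2-fold), and 25 and 77 (5 and 63) with knockout replicate 13 also left out; among replicates 1 to 8, 167 were higher at least 2-fold. At an adjusted p under 0.01 they were 252 and 375 (21 and 262). One fit of all 8 groups called 202 higher. Without a filter on low counts 454 and 948 genes passed 2-fold, 442 and 937 without replicate 13, and with at least 10 CPM in 16 libraries 17 and 253. Unfiltered, oocytes gave 148 and 305 past 2-fold, 4-cell embryos 1482 and 1188 (1178 and 902), and the difference between stages 108 and 113 (97 lower past 2-fold). The cause of these shifts was not tested beyond the fewer samples or other gene sets in each.

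Leaving out 1 library gave 533 to 765 higher and 687 to 1004 lower genes, with 28 to 52 and 307 to 466 past 2-fold; the 52 came without wildtype replicate 11. The difference between stages gave 249 and 246 (66 and 161) without knockout replicate 13. The mitochondrial share differed by -0.876 to -0.575 percentage points with 1 library left out, the last without wildtype replicate 6 (permutation p = 0.0505), and by 0.294 in replicates 9 to 16; genes detected differed by -228 there. Total counts differed by -152900 in that range and by -79164 to 114595 with 1 library left out, the last without knockout replicate 13. In replicates 9 to 16, and there without replicate 13, mt-Nd2 was at 0.16 and 0.086, mt-Nd4l at 0.074 and 0.037, and Suz12 at 0.077 and 0.023. Of 25 genes named by p-value or as Kdm4a, none reversed under the alternatives run (23 passed the stricter filter), and 5 lost the call in the fit of all groups, 4 in replicates 9 to 16 and 7 there without replicate 13. Over all 118 named genes, list members included, 87 lost the call and 3 reversed in replicates 9 to 16 (90 and 3 without replicate 13), 32 lost it in the fit of all groups, 30 at an adjusted p under 0.01, 16 in replicates 1 to 8, 14 with the replicate block and 6 with limma voom.

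With the replicate number as a block, 497 genes were higher and 593 lower (40 and 321 past 2-fold), 446 and 528 without replicate 13, and the difference between stages had 128 lower (87 past 2-fold). Of 16 pairs 3 correlated above 0.1 and 0 correlated best with their own number. This check compares single pairs, so it cannot show whether embryos share a litter or batch that spans several numbers.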
